A study of Mus musculus with 18 samples.

Results

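The cytosolic HSP70 and HSP110 chaperones were followed across all 6 groups of the study through 9 genes, Hspa1a, Hspa1b, Hspa2, Hspa8, Hspa13, Hspa14, Hsph1, Hspa4 and Hspa4l. They were picked by symbol from the 24421 genes of the count table; the rule uses no measured value, but the family was chosen with earlier results of these data known. All 9 passed the filter on low counts that left 13507 genes to be tested. The parental cells were 4T1, derived from a mammary carcinoma of mouse strain BALB/cfC3H and labelled wild type, and the others 4T1R1 and 4T1R2, populations selected from 4T1 by repeated exposure to 17-DMAG. Each was sequenced untreated and after 17-DMAG, with 3 libraries of total RNA per group. The labels give 1.5 µM for 48 h as the treatment and 3 rounds of the same exposure as the selection. The series text instead gives 2 h of treatment and a selection with several cycles of 1 µg/ml for 24 h, so the time behind every response below is uncertain. Each resistant population is a single selected culture, and its libraries repeat that culture, so P-values measure the spread between libraries and not between independent selections.

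HSP70 chaperones hold unfolded stretches of client proteins in cycles of ATP hydrolysis that J-domain proteins start and nucleotide exchange factors end. The HSP110 proteins are distant relatives of HSP70 that act mainly as such exchange factors. HSP90 keeps the transcription factor HSF1 inactive, and inhibitors of HSP90 such as 17-DMAG, a soluble geldanamycin derivative, are known to release HSF1 and to raise its target genes, of which HSP70 is the classical marker. HSF1 binds inverted repeats of GAA and its reverse complement TTC known as heat shock elements.

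Hspa1a and Hspa1b are a pair of closely related genes for the stress-inducible HSP70, with 1 exon each on chromosome 17. Their protein sequences were not compared here. In GRCm38 Hspa1b lies at chr17:34956436-34959238 and Hspa1a at chr17:34969190-34972156, both on the minus strand. Of the 2754 stretches of 50 bases in the Hspa1b transcript, 1716 also occur in Hspa1a, 1038 are unique, and Hspa1a has 983 unique stretches of its 2918. The 250 bases before each start, taken from RefSeq (GRCm38.p6) and printed 5′ to 3′ on the gene's strand, show how far the likeness of the copies reaches into the promoter.
Hspa1b (chr17:34959239-34959488, minus strand): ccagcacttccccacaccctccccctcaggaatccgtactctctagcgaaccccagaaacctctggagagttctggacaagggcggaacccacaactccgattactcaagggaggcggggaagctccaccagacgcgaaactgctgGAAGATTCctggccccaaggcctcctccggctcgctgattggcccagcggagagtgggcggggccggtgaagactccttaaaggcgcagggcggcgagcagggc
Hspa1a (chr17:34972157-34972406, minus strand): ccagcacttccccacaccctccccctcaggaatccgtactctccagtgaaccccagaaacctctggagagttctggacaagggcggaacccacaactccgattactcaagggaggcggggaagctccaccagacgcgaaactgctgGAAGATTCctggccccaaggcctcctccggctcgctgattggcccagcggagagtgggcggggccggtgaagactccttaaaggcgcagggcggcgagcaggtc
They agree at 247 of 250 positions and differ by T44C, C47T and G249T, with the base of Hspa1b first and positions counted from 1 at the 5′ end. The capitals mark GAANNTTC, the pair of heat shock element units with GAA first, whose first base lies at position −104 from the start in both copies. It reads the same on either strand, and 6.69% of the 32851 mouse promoters in the table hold it. The RefSeq table held 7 of the 9 genes, all but Hspa8 and Hspa13. A pair with TTC first, TTCNNGAA, occurred among them only before Hsph1 and in 7.17% of all promoters. It is shown in capitals within the 30 bases around it. These lie before the RefSeq start, but the capitals and most of the other bases lie inside the gene as annotated by GENCODE.
Hsph1 (chr5:149636351-149636380, minus strand): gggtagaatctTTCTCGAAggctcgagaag
No promoter among the 7 genes held 3 alternating units in a row, which 0.466% of all promoters did. A match to these letters is a description of the sequence and not a binding site.

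The libraries held 23354461 to 55094630 counts, of which the ribosomal RNA precursor Rn45s took 9.54% to 15.63%. In treated 4T1, the libraries of replicates 1 and 2 agreed within sampling noise (chi-square per gene 1.1, against 2.04 to 2.22 in the 17 other replicate pairs) and were averaged into 1 library, which leaves 17 libraries and n = 2 in that group. Of 6 epithelial markers, Krt8, Krt18, Krt7 and Cdh1 were at 8541 normalized counts or more in every library. Epcam was lower, at 720 to 1547, and Krt14 was at 82.1 to 415. The summed levels of the 6 were 50465 to 76260 normalized counts. The sum was lower in 4T1R1 (50465 to 52943) and 4T1R2 (58678 to 62021) than in 4T1 (74698 to 76260), and its part in the results was not tested. Of 4 fibroblast markers, Dcn, Col3a1 and Lum were at or near 0 and Pdgfra was at 375 to 1027 normalized counts; their sum was lower in treated 4T1 (375 to 396) than in untreated 4T1 (669 to 741). Of 4 leukocyte markers Cd3e was at or near 0, Cd68 at 118 to 207, Csf1r at 9.74 to 43.0 and Ptprc at 3.71 to 18.2, and the 3 endothelial markers summed to at most 17.5. The part of these genes in the results was not tested. The library identifiers of 4T1R1 form a series apart from those of 4T1 and 4T1R2, and differences between 4T1R1 and the others cannot be told apart from this. Below, normalized counts are counts scaled to a common library size with TMM factors, and a gene was called where edgeR's quasi-likelihood test gave an adjusted P-value under 0.05 over all 13507 genes.

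17-DMAG raised the inducible and the constitutive HSP70 genes and all HSP110 genes of the parental 4T1 cells, while Hspa2, Hspa13 and Hspa14 did not pass the test. Of the 9 genes, 6 were called higher and none lower, by edgeR and by DESeq2 alike, where 18.4% of all genes tested were called higher and 17.9% lower. The median log2FC of the 9 genes was 1.23, against 0.00064 over all genes. When libraries were scaled by their totals alone, all genes together shifted by a median of −0.11, with 1193 called higher and 4322 lower in place of 2490 and 2423; the same 6 members were then called higher, and Hspa14 was called lower (log2FC −0.19).

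Hspa1b changed most. Its normalized counts were 470.2, 483 and 518 in the untreated 4T1 libraries and 16747 and 17081 in the treated ones. No library of one group came near the other, and the fitted rise was 34.5-fold (95% interval 32.2 to 36.9). In such bulk libraries more RNA per cell and a larger share of responding cells cannot be told apart. With Hspa1a added the rise of the pair was 34.0-fold (31.6 to 36.4), because Hspa1a was counted at only 4.14, 4.27 and 15.6 normalized counts before and 30.2 and 30.6 after treatment. The rise of Hspa1a was called (log2FC 1.88, standard error 0.522, adjusted P-value 0.00337). It rests on 3 to 49 counts per library over the study, and how reads that match both copies were counted is not given in the sources used here. Hspa1a took 1.56% ± 1.18 (SD, n = 3) of the pair's counts in untreated 4T1 and 0.179% in the treated cells, although its transcript has about as many unique stretches as that of Hspa1b. By GENCODE the protein-coding gene Gm20481 overlaps Hspa1a on the opposite strand, and no gene overlaps Hspa1b. The strand setting of the counting is not given either, and whether the overlap lowered the counts of Hspa1a was not tested.

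Hspa8 (chr9:40800984-40810087) encodes HSC70, the constitutive HSP70 of the cytosol and the most abundant member per length of transcript. It stood at 62083, 61054 and 63062 normalized counts in untreated and at 314045 and 305429 in treated 4T1, a 4.99-fold rise (4.81 to 5.18). The gene thus rose far beyond its spread from an already high level. Only 47.35% of the 50-base stretches of its transcript are unique, most of the rest being shared with the pseudogene Gm15459, and 3 small nucleolar RNA genes lie inside it, so its counts are uncertain to that extent.

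Among the HSP110 genes, Hsph1 (chr5:149614287-149636376) encodes the stress-inducible HSP105. Its levels were 11238, 10383 and 10831 normalized counts before and 72549 and 69747 after treatment, a 6.58-fold rise (6.26 to 6.90), second only to Hspa1b within the family. Hspa4l, which encodes APG-1, rose 2.35-fold (2.23 to 2.47), from 4398, 4200 and 4269 to 10395 and 9761. Hspa4, which encodes the constitutive APG-2, rose by only 1.18-fold (1.14 to 1.23), from 19991, 19665 and 19699 to 23626 and 23172, yet without overlap between the groups. The sequence of the HSP110 genes by response was therefore Hsph1, Hspa4l and Hspa4, with intervals that did not touch.

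The remaining members did not pass the test. Hspa13 encodes a microsome-associated HSP70 that lacks the peptide-binding part, and was at 3133 ± 150 (SD, n = 3) and 3170 ± 40.8 (SD, n = 2) normalized counts. Hspa14, whose product works at the ribosome with the J-domain protein encoded by Dnajc2, was at 3688 ± 99.8 (SD, n = 3) and 3496 ± 72.3 (SD, n = 2). The 95% intervals of their log2FC, −0.091 to 0.12 and −0.16 to 0.0076, leave room for small changes only. Hspa2, known for its role in spermatogenesis, was counted 10 to 53 times per library, and its interval of −0.80 to 0.77 leaves its response undetermined at this depth.

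**Figure D1:**
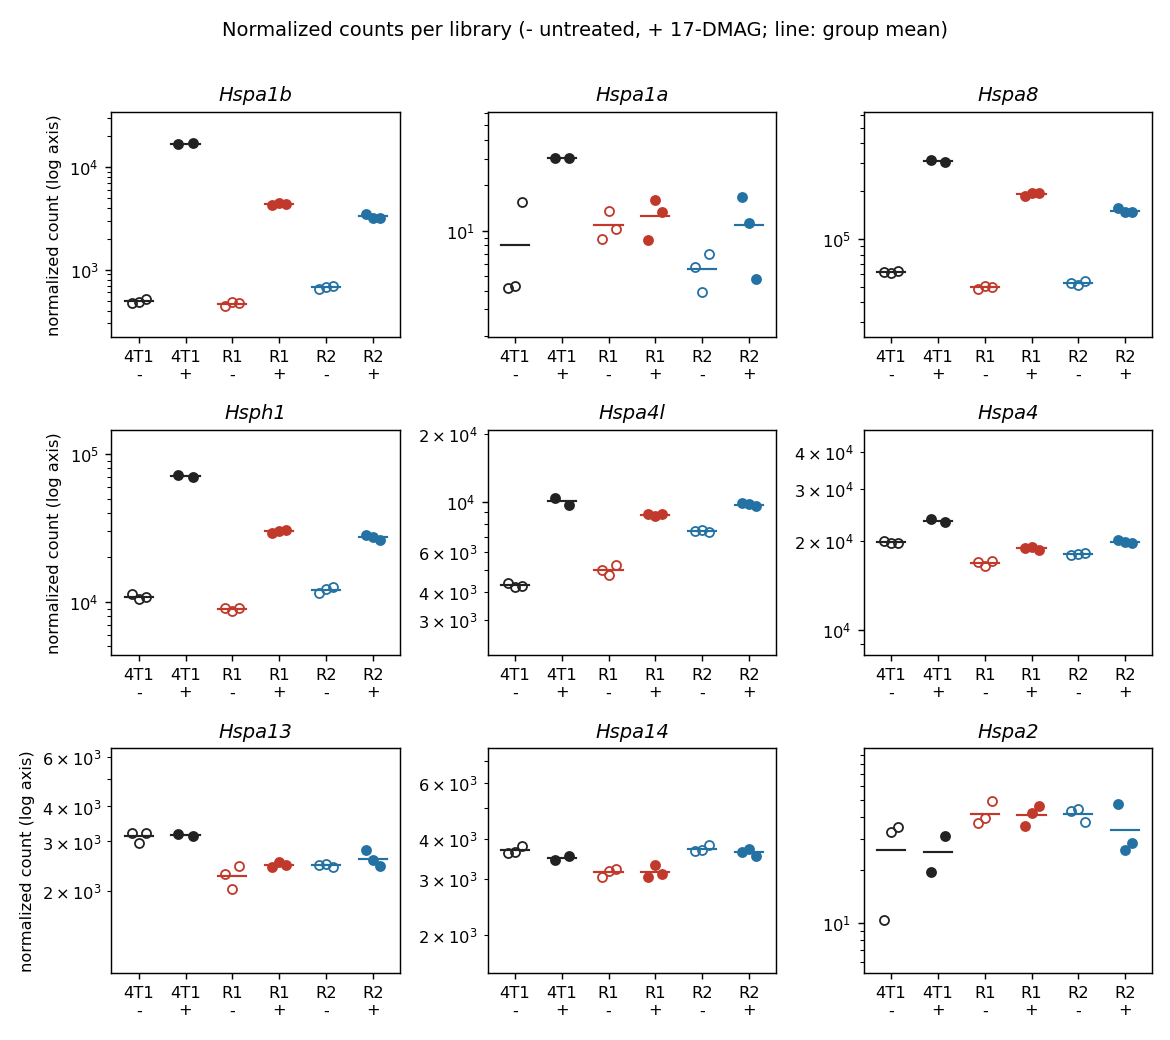
Normalized counts of the 9 genes in each library on log axes, for 4T1, 4T1R1 (R1) and 4T1R2 (R2), untreated (−, open points) and after 17-DMAG (+, filled points); lines are group means. Treated 4T1 has 2 points because a near-identical library pair was averaged. For Hspa1b, Hspa8 and Hsph1 every treated library lies above every untreated one, and the treated 4T1 libraries lie highest.

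Hspa1b, Hspa8, Hsph1, Hspa4l and Hspa4 rose in both resistant populations as well, and Hspa1a was called in neither. In 4T1R1, 6 of the 9 genes were called higher and none lower (13.9% and 14.3% of all genes), with a median log2FC of 0.21 against −0.0086 over all genes. In 4T1R2, 5 were called higher and none lower (6.18% and 4.35% of all genes), with a median of 0.38 against −0.0019. The median in 4T1R1 is the value of Hspa1a, which has few counts, so the order of the 2 medians is not robust. In the fit with at least 10 counts in every library, which leaves out Hspa1a, the medians of the other 8 genes were 0.49 in 4T1R1 and 0.26 in 4T1R2. The sixth call in 4T1R1 was that of Hspa13. With library totals alone the calls over all genes were 2356 higher and 1316 lower in 4T1R1 (1874 and 1938 with TMM) and 367 and 1146 in 4T1R2 (835 and 588 with TMM), and the member counts stayed at 6 and 5.

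In 4T1R1 the Hspa1b libraries went from 439, 486 and 469.9 to 4235, 4419 and 4391 normalized counts, a 9.35-fold rise (8.74 to 10.0), and in 4T1R2 from 649, 682 and 695 to 3526, 3190.3 and 3191, a 4.90-fold rise (4.59 to 5.23). The treated libraries of both resistant populations lay above every untreated library and below every treated 4T1 library. The rise of the summed pair was 9.16-fold (8.55 to 9.82) in 4T1R1 and 4.87-fold (4.56 to 5.21) in 4T1R2. Hspa1a was not called in either (log2FC 0.21, adjusted P-value 0.819, and 0.95, adjusted P-value 0.359), and its treated and untreated libraries overlapped.

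Hsph1 rose 3.37-fold (3.22 to 3.52) in 4T1R1, from 9058, 8677 and 9009 to 29353, 30338 and 30407, and 2.27-fold (2.17 to 2.37) in 4T1R2, from 11498, 12141 and 12537 to 28432, 27530 and 26062. The constitutive Hspa8 held more of its response, with rises of 3.87-fold (3.74 to 4.01) in 4T1R1 and 2.84-fold (2.75 to 2.94) in 4T1R2. Its treated libraries held 187925, 194748 and 194353 normalized counts in 4T1R1 and 156620, 147686 and 147521 in 4T1R2. In both resistant populations the rise of Hspa8 thus exceeded that of Hsph1, the reverse of the parental order, with intervals that did not overlap.

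Hspa4l rose 1.75-fold (1.67 to 1.84) in 4T1R1 and 1.31-fold (1.25 to 1.36) in 4T1R2. Hspa4 rose 1.12-fold (1.08 to 1.16) and 1.10-fold (1.06 to 1.14). Hspa13 was called in 4T1R1 only (log2FC 0.13, adjusted P-value 0.0435), and its groups overlapped. That call was lost in a fit of the compared groups alone (adjusted P-value 0.0557) and on leaving out any of 8 libraries. These were untreated 4T1R1 replicate 1 (adjusted P-value 0.0569) and replicate 2 (log2FC 0.060, 0.409), treated 4T1R1 replicates 1 to 3 (0.0635, 0.136 and 0.0816), untreated 4T1R2 replicates 2 and 3 (0.0504 and 0.0517) and treated 4T1 replicate 3 (0.0554), without which that group holds only the averaged library. Whether Hspa13 responded differently in 4T1R1 and 4T1 did not pass the test (difference 0.11, adjusted P-value 0.310).

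**Figure D2:**
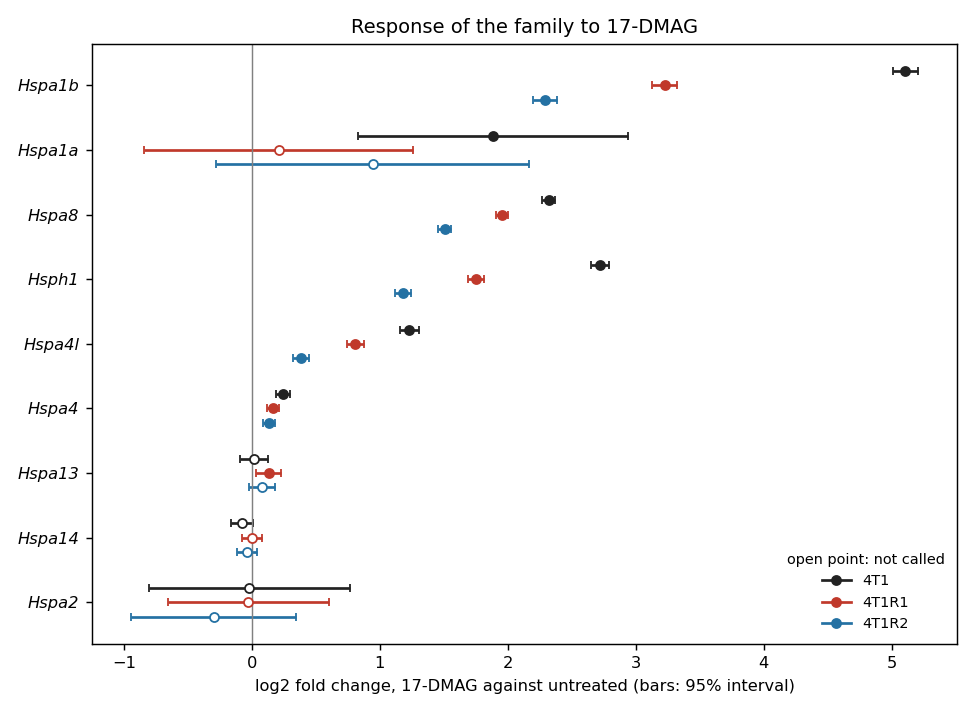
Log2FC of each gene after 17-DMAG against untreated cells of the same population, with 95% intervals. Filled points were called and open points were not; the 3 points of Hspa1b stand at 5.11, 3.23 and 2.29, and the intervals of Hspa1a and Hspa2 are wide because few reads were counted.

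The smaller response was tested as the difference of the log2FC between populations. For 4T1R1 against 4T1, 4 of the 9 genes had a smaller response and none a larger one (9.08% and 9.16% of all genes), with a median difference of −0.37 against −0.0030 over all genes. The differences were −1.88 for Hspa1b (standard error 0.0737), −0.97 for Hsph1 (standard error 0.0465), −0.42 for Hspa4l and −0.37 for Hspa8, with adjusted P-values from 1.44e-22 to 1.16e-08. For the summed Hspa1 pair the difference was −1.89. With library totals alone, which shifted all genes by a median of 0.15 in this comparison (3536 called higher and 419 lower, in place of 1237 and 1227), these 4 stayed called, Hspa13 (0.26) and Hspa14 (0.23) were called as larger responses, and the sign of Hspa4, never called, turned from −0.077 to 0.073.

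For 4T1R2 against 4T1, 5 of the 9 genes had a smaller response and none a larger one (8.16% and 9.62% of all genes), with a median difference of −0.81 against −0.0011. The differences were −2.81 for Hspa1b, −2.80 for the summed pair, −1.54 for Hsph1, −0.85 for Hspa4l and −0.81 for Hspa8. The call for Hspa4 (−0.11, adjusted P-value 0.0335) was lost with library totals alone (−0.038), without the filter (adjusted P-value 0.0702) and on leaving out any of 7 libraries. These were untreated 4T1 replicates 2 and 3 (adjusted P-values 0.0604 and 0.0702), untreated 4T1R2 replicates 2 and 3 (0.0602 and 0.0848), treated 4T1R2 replicates 2 and 3 (0.0525 and 0.0696) and treated 4T1 replicate 3 (−0.086, 0.230). Library totals alone gave 2091 genes higher and 631 lower here, in place of 1299 and 1102.

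The resistant populations also differed from each other. The response was smaller in 4T1R2 than in 4T1R1 for 4 of the 9 genes and larger for none (0.918% and 1.21% of all genes), by −0.93 for Hspa1b, −0.57 for Hsph1, −0.45 for Hspa8 and −0.43 for Hspa4l on the log2 scale, with adjusted P-values from 1.45e-12 to 2.04e-08. The median over the 9 genes was −0.27, against 0.0044 over all genes. It is the value of Hspa2, which has few counts (standard error 0.445). In the fit with at least 10 counts in every library, which leaves out Hspa1a, the median of the other 8 genes was −0.355. Across the populations the response thus descended from 4T1 through 4T1R1 to 4T1R2 for the same 4 genes. Each response is relative to the untreated level. That level was higher in 4T1R2 than in 4T1R1 for Hspa4l (0.58), Hspa1b (0.54), Hsph1 (0.44) and Hspa8 (0.094). The treated level was lower in 4T1R2 for Hspa1b (−0.40), Hspa8 (−0.35) and Hsph1 (−0.14) and higher for Hspa4l (0.15). The comparisons of responses share libraries, so their values are set side by side and not counted as independent.

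Before treatment the family showed no common direction in the resistant cells. In untreated 4T1R1, 1 member was higher than in untreated 4T1 and 5 were lower (25.2% and 27.5% of all genes), with a median log2FC of −0.23 against 0.0075 over all genes. In untreated 4T1R2, 3 were higher and 3 lower (25.6% and 26.9% of all genes), with a median of 0.017 against 0.0068. Calls in each direction were as frequent over all genes as these shares state.

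Of the members called, Hspa4l stood highest above 4T1 in both. Its untreated libraries held 5005, 4753 and 5266 normalized counts in 4T1R1 and 7482, 7540.3 and 7406 in 4T1R2, above all 3 libraries of 4T1, with log2FC of 0.22 (standard error 0.0336, adjusted P-value 3.52e-07) and 0.80 (standard error 0.0333, adjusted P-value 4.57e-23). In untreated 4T1R2 it thus lay 1.74-fold above the parental level. Hspa1b was 1.37-fold higher in untreated 4T1R2 (adjusted P-value 1.53e-08), and its level in untreated 4T1R1 did not pass the test (log2FC −0.078, interval −0.20 to 0.046). Hsph1 was higher in 4T1R2 (0.16) and lower in 4T1R1 (−0.28).

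The constitutive members were lower. Hspa8 was lower by a log2FC of −0.32 in 4T1R1 and −0.23 in 4T1R2, Hspa13 by −0.47 and −0.35, and Hspa4 by −0.23 and −0.13, each called. Hspa14 was lower only in 4T1R1 (−0.23), and in 4T1R2 did not pass the test (interval −0.059 to 0.093); the direct comparison of the resistant populations gave a log2FC of 0.25 for it. Hspa2 was at 26.2 ± 13.8 normalized counts in untreated 4T1, 42.0 ± 6.42 in 4T1R1 and 41.6 ± 3.70 in 4T1R2 (SD, n = 3), and neither difference was called. Without untreated 4T1 replicate 3 both were (log2FC 0.96 and 0.94, adjusted P-values 0.0365 and 0.0424), which brings the members higher in untreated 4T1R1 to 2.

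Between the untreated resistant populations, 7 of the 9 genes were higher in 4T1R2 than in 4T1R1 and none was lower (19.7% and 19.0% of all genes), with a median log2FC of 0.12 against −0.0079. The largest differences were 0.58 for Hspa4l, 0.54 for Hspa1b and 0.44 for Hsph1. Hspa14 (0.25), Hspa4 (0.11) and Hspa8 (0.094) followed. The call for Hspa13 (0.12, adjusted P-value 0.0486) was lost in DESeq2, in 3 other fits and on leaving out any of 11 libraries. Those were untreated 4T1R1 replicates 1 and 2, untreated 4T1R2 replicates 1 to 3, treated 4T1R1 replicates 1 to 3, untreated 4T1 replicate 3 and treated 4T1 replicates 2 and 3. The log2FC was 0.052 without untreated 4T1R1 replicate 2 and 0.19 without its replicate 3, under which the call held.

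**Figure D3:**
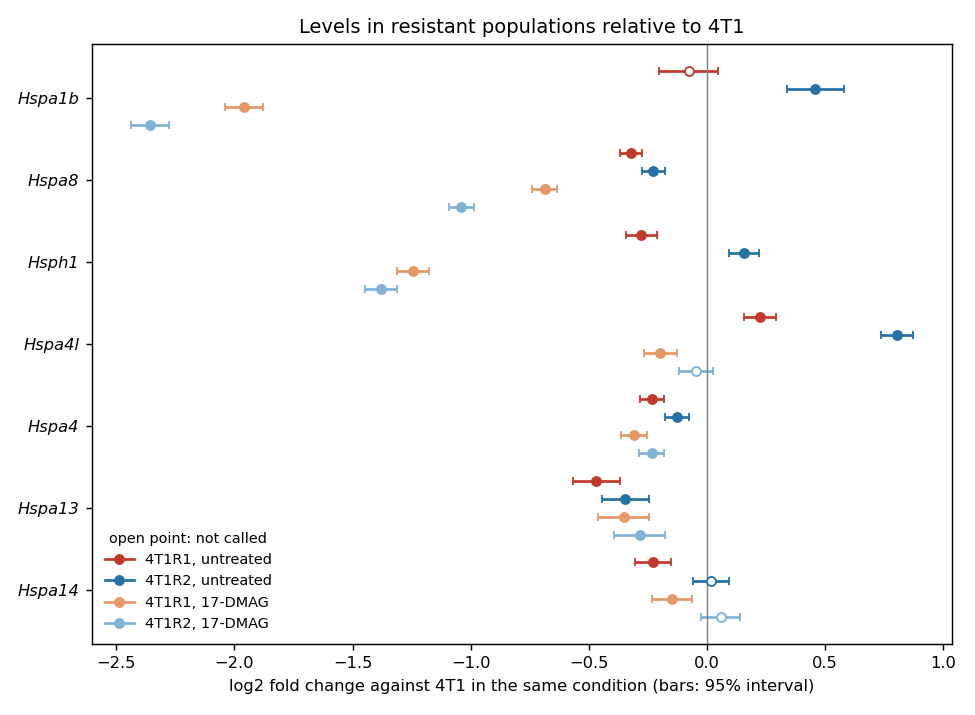
Log2FC of 7 of the genes in each resistant population against 4T1 in the same condition, with 95% intervals; Hspa1a and Hspa2, which have few counts, are not drawn. Filled points were called and open points were not; for Hspa1b, Hspa8 and Hsph1 the treated points lie far to the left, and for Hspa4l the untreated points lie to the right.

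After 17-DMAG, Hspa1b, Hspa8, Hsph1, Hspa4 and Hspa13 stood lower in both resistant populations than in 4T1, and with TMM scaling no member was called higher. In treated 4T1R1, 8 of the 9 genes were lower than in treated 4T1 and none was higher (27.6% and 25.1% of all genes), with a median log2FC of −0.35 against 0.0085 over all genes. Hspa1b was 3.89-fold lower, Hsph1 2.37-fold lower and Hspa8 1.61-fold lower, and Hspa2 was the member not called (0.67, adjusted P-value 0.126). This count depended on the scaling. With library totals alone, which shifted all genes by a median of 0.18 (5794 higher and 1864 lower, in place of 3386 and 3732), 5 members were lower, Hspa2 was called higher (0.84), Hspa14 turned from −0.15 to 0.027, Hspa1a was no longer called (adjusted P-value 0.0527) and Hspa4l, at −0.20 with TMM, was at −0.022.

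In treated 4T1R2, 6 of the 9 genes were lower than in treated 4T1 and none was higher (28.0% and 25.8% of all genes), with a median of −0.28 against −0.00084. Hspa1b was 5.12-fold lower, Hsph1 2.60-fold lower and Hspa8 2.06-fold lower. Hspa4l did not pass the test: its treated libraries held 9915, 9764 and 9589 normalized counts in 4T1R2 against 10395 and 9761 in 4T1, and the interval of the log2FC was −0.12 to 0.025. The treated libraries of 4T1R2 lay partly within and partly just below the parental pair, while the untreated ones lay above the parental libraries. Hspa1a was called lower in treated 4T1R1 (−1.27) and 4T1R2 (−1.47); both calls were lost without treated 4T1 replicate 3 (adjusted P-values 0.102 and 0.0548), where the averaged library alone stands for treated 4T1 and is assumed to vary like the other groups. The call in 4T1R1 was also lost without its treated replicate 1 (0.107) and without the filter (0.0543), and that in 4T1R2 without its treated replicate 3 (0.0653). With library totals alone Hspa14 was called higher in treated 4T1R2 (0.15) and Hspa4l, not called, turned to 0.042.

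Between the treated resistant populations, Hspa1b (−0.40), Hspa8 (−0.35) and Hsph1 (−0.14) were lower in 4T1R2 than in 4T1R1, and Hspa14 (0.21), Hspa4l (0.15) and Hspa4 (0.075) were higher. These were 3 genes in each direction (21.3% of all genes lower and 22.7% higher), with a median of −0.14 against −0.012. Only Hspa14 of the higher ones stayed called with library totals alone, under which Hspa4 turned to −0.013. The call for Hspa4 was also lost without treated 4T1R1 replicate 3 (adjusted P-value 0.0684) or treated 4T1R2 replicate 1 (0.0506).

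Levels were compared between genes after each was divided by its length in exons. This takes no account of reads that match several genes. Of the 50-base stretches, 33.69% were unique in Hspa1a, 37.69% in Hspa1b, 47.35% in Hspa8 and 84.36% in Hspa14. In the other members at least 99.37% were. How shared reads were counted is not given in the sources used here, so the places of those genes in the order are uncertain to that extent. On this scale of normalized counts per kilobase, Hspa8 was the highest member in every group, at 14431 ± 233 in untreated 4T1, followed by Hspa4 (3579 ± 32.5), Hsph1 (1489 ± 58.8), Hspa14 (909 ± 24.6), Hspa13 (458 ± 21.9), Hspa4l (364 ± 8.54), Hspa1b (175 ± 8.79), Hspa2 (9.91 ± 5.20) and Hspa1a (2.70 ± 2.22), each as mean ± SD of 3 libraries. The ranges over libraries of neighboring genes in this order did not overlap, apart from those of Hspa2 and Hspa1a, which came within the range of each other. In treated 4T1 Hsph1 (9792 ± 273) and Hspa1b (6034 ± 84.3) both stood above Hspa4 (4233 ± 58.1; SD, n = 2). In treated 4T1R2 Hsph1 (3763 ± 165) and Hspa4 (3597 ± 36.0) had overlapping ranges. Their closeness depended on the length used. By the exon union Hsph1 took 8.24% and Hspa4 7.88% of the summed level of the members there. By the longest transcript the shares were 9.17% and 6.88%.

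Summed over the 9 genes, the level per length was 21417 ± 328 in untreated 4T1 and 94274 ± 1686 (SD, n = 2) in treated 4T1, a ratio of 4.40. Relative to untreated 4T1 the sum was 0.819 in untreated and 2.60 in treated 4T1R1, and 0.907 in untreated and 2.13 in treated 4T1R2. Hspa8 gave most of the sum throughout, 67.4% in untreated and 76.4% in treated 4T1, and 80.3% and 76.7% in treated 4T1R1 and 4T1R2. The inducible Hspa1b took 0.817% of the sum in untreated and 6.40% in treated 4T1, against 2.78% in treated 4T1R1 and 2.58% in treated 4T1R2. All these shares carry the uncertainty about shared reads stated above. The weakly responding Hspa4 fell from 16.7% to 4.49% of the sum in 4T1 as other members rose around it, although its own level did not fall.

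**Figure D4:**
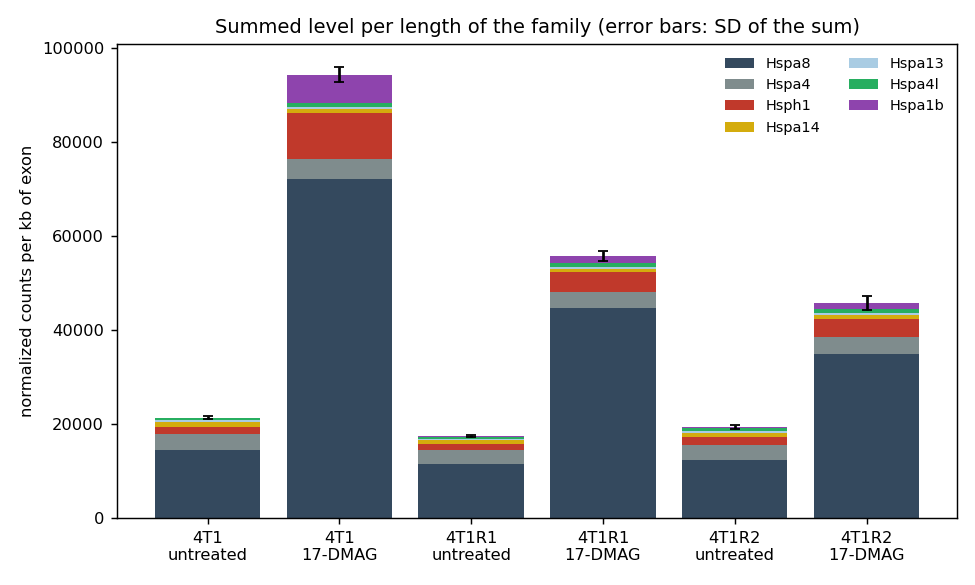
Summed level of the family in normalized counts per kilobase of exon in the 6 groups, stacked by gene, with error bars for the SD of the sum over 3 libraries (2 in treated 4T1). Hspa8 forms most of every bar. Hspa1a and Hspa2, too small to see, are not drawn. The error bars are centered on the sum over all 9 genes, which was 94274 in treated 4T1, 55725 in treated 4T1R1 and 45676 in treated 4T1R2.

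The partners of HSP70 were described through 20 genes of J-domain proteins, exchange factors and adaptors, all of which were tested. In 4T1, 13 were higher and 1 lower after 17-DMAG (18.4% and 17.9% of all genes), with a median log2FC of 0.30 against 0.00064 over all genes. In 4T1R1, 13 were higher and none lower (13.9% and 14.3% of all genes; median 0.25 against −0.0086). In 4T1R2, 10 were higher and none lower (6.18% and 4.35% of all genes; median 0.12 against −0.0019). Compared with 4T1, 10 of the 20 had a smaller response in 4T1R1 and none a larger one (9.08% and 9.16% of all genes), and in 4T1R2 10 had a smaller response and 1, Bag5, a larger one (8.16% and 9.62% of all genes). With library totals alone the counts in 4T1 were 11 higher and 2 lower (13 and none in 4T1R1, 10 and none in 4T1R2), and 7 of the 20 had a smaller and 3 a larger response in 4T1R1.

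The J-domain genes Dnajb1 and Dnaja1, whose products deliver clients to HSP70, had the largest rises in 4T1. Dnajb1 rose by a log2FC of 2.19 in 4T1, 1.34 in 4T1R1 and 1.01 in 4T1R2, from 1468 to 6696 normalized counts in 4T1. Dnaja1 rose by 2.03, 1.86 and 1.17, and its response differed from that of 4T1 by −0.85 in 4T1R2. In 4T1R1 the difference of −0.16 (adjusted P-value 0.0314) was lost with library totals alone (−0.016). Bag3, an exchange factor that links HSP70 to selective autophagy, rose by 1.56, 0.55 and 0.35, and its untreated level was above that of 4T1 in both resistant populations (0.30 and 0.43). Bag5 was the partner that fell in 4T1 (−0.20, adjusted P-value 0.00355). The values in 4T1R1 (−0.060) and 4T1R2 (0.016) were not called.

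**Figure D5:**
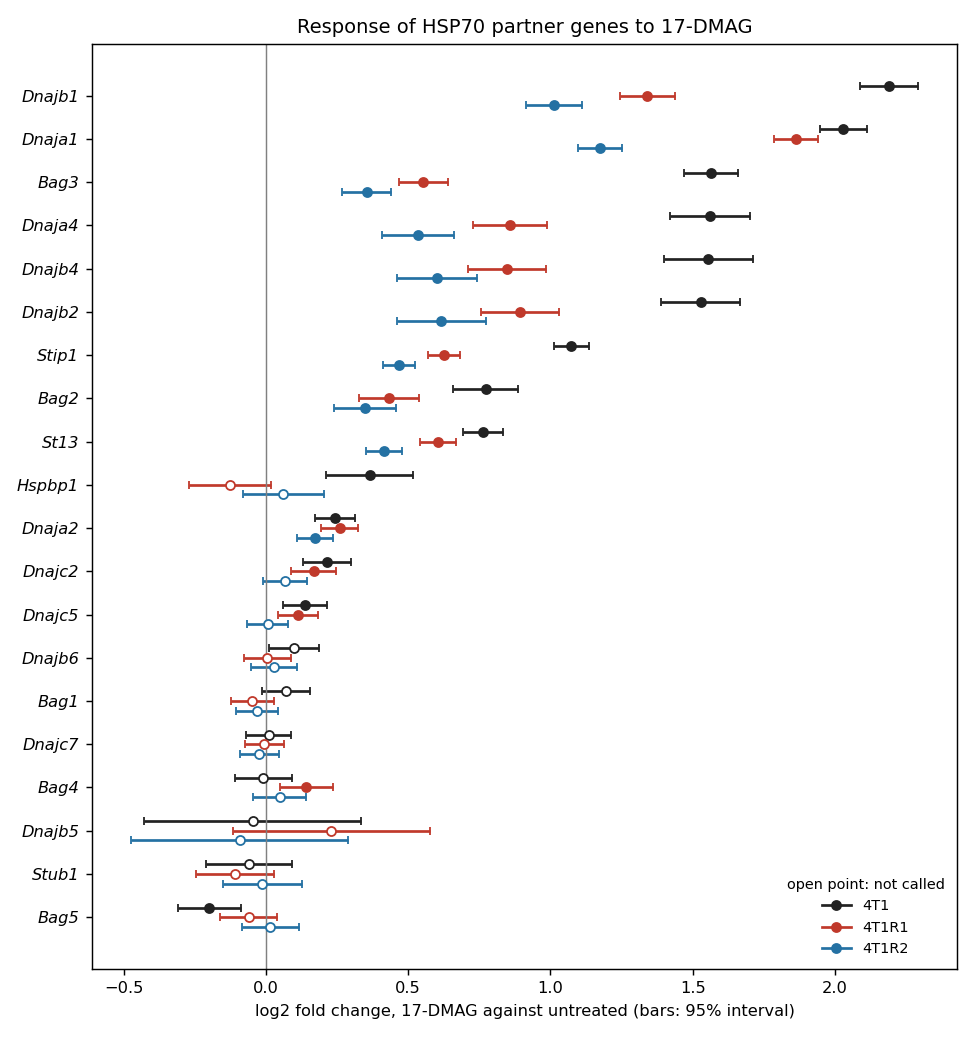
Log2FC of the 20 HSP70 partner genes after 17-DMAG in each population, with 95% intervals; filled points were called and open points were not. The first 9 genes from the top rose in all 3 populations, with the point of 4T1 farthest to the right for each, and most of the lower genes lie near 0.

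Of 6 further genes of the HSP70 superfamily, 5 were tested. After 17-DMAG, 2 were called higher and none lower in 4T1 (18.4% and 17.9% of all genes). The calls were 1 higher and 2 lower in 4T1R1 (13.9% and 14.3% of all genes). They were 2 higher and none lower in 4T1R2 (6.18% and 4.35% of all genes). The mitochondrial Hspa9 rose in each population, by 0.41 in 4T1, 0.17 in 4T1R1 and 0.090 in 4T1R2, and its response was smaller than in 4T1 by −0.25 and −0.32. Hspa5, the chaperone of the endoplasmic reticulum, rose in 4T1 (0.23) and 4T1R2 (0.16) and fell in 4T1R1 (−0.10), and Hyou1, its HSP110-like exchange factor, fell in 4T1R1 (−0.13) and was not called in 4T1 or 4T1R2. Hspa1l and Hspa12b were not called in any response. Several of these small changes depended on the scaling: with library totals alone the calls for Hspa9 in 4T1R2 (0.044) and Hspa5 in 4T1R1 (−0.071) were lost, as was the smaller response of Hspa9 in 4T1R1 (−0.098), and Hyou1 was called lower in 4T1 (−0.15).

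Across the 17 libraries, which share their 6 groups, the log2 levels of Hspa1b correlated with those of Hsph1 (Pearson r = 0.995) and Hspa8 (r = 0.984), less with those of Hspa4l (r = 0.848) and Hspa4 (r = 0.745), and hardly with Hspa13 (r = 0.289) or Hspa14 (r = −0.113). Among 10631 genes outside the family, the patterns most like that of the summed Hspa1 pair were those of Ahsa1 (r = 0.996), Fkbp4 (0.991) and Stip1 (0.990), and for Hsph1 those of Stip1 (0.995), Ahsa1 (0.993) and Hsp90aa1 (0.989). Ahsa1, Fkbp4 and Stip1 encode co-chaperones of HSP90, and Hsp90aa1 its inducible form. Hspa8 was closest to the J-domain gene Dnaja1 (0.992), then to Chordc1 (0.987) and Serpinh1 (0.985). Hspa4l, with its raised untreated level in 4T1R2, was closest to P4ha1 (0.977), Zfp106 (0.977) and Dnaja4 (0.967). For Hspa2, with few counts, the highest values were lower, at 0.796 for Ddias, 0.786 for Pik3r5 and 0.773 for Enpp5. These correlations describe the libraries and carry no test.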

How the data were processed

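Total RNA of subconfluent cultures was sequenced after depletion of ribosomal RNA with a stranded kit. Per the labels and the study's methods, the authors aligned reads with STAR to mm10 (GRCm38) and made the deposited table of raw read counts per gene with featureCounts (Subread 1.6.2, base calling with bcl2fastq 2.20); the strand setting and the treatment of reads that match several genes are not given in the sources used here. The deposited counts, 23354461 to 55094630 per library, were tested after averaging of 1 near-identical pair (genes with 4 to 30 counts in the pair compared by chi-square). The average was left unrounded in the edgeR fits and was rounded for DESeq2 only.

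Genes were filtered with filterByExpr (minimum count 10). Hspa1a reached that level in 9 of 17 libraries, 7 of them outside treated 4T1, where 2 were needed, and the other members in all. The 17 libraries were fitted with 1 term per group in edgeR 4.0.16 (TMM scaling, quasi-likelihood F-test, R 4.3.3), and 12 comparisons were adjusted by Benjamini and Hochberg over 13507 genes at 0.05. Standard errors and 95% intervals come from that fit. Counts per kilobase used the union of exons in GENCODE annotation of GRCm38. Correlations used log2(normalized count + 1) over genes tested with a mean of at least 100. The sum of Hspa1a and Hspa1b replaced both rows in a separate fit. All members were named; of the partner list, the 3 called genes with the largest log2FC in 4T1 and any called in the other direction were named. The members and lists were chosen with earlier results of these data known. The scripts were tested on simulated data. Alternatives were RLE scaling, library totals alone, no filter, 10 counts in every library, DESeq2 1.42.0, the compared groups alone, no Rn45s, all 18 libraries with and without a replicate block, and each library left out in turn.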

Additional observations from a re-analysis of the deposited data

Results flagged for a closer look

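The response to 17-DMAG differed between populations for several of the 9 genes, by the test of the difference itself (edgeR's quasi-likelihood test). In 4T1R1 minus 4T1 a smaller response was called for 4 of them (9.08% of all genes). In 4T1R2 minus 4T1 it was called for 5 (8.16%), and in 4T1R2 minus 4T1R1 for 4 (0.918%). No member had a larger response (9.16%, 9.62% and 1.21% of all genes). In 4T1R1 minus 4T1 the difference of the log2FC was −1.88 for Hspa1b, −1.89 for the summed Hspa1 pair, −0.97 for Hsph1, −0.42 for Hspa4l and −0.37 for Hspa8. In 4T1R2 minus 4T1 it was −2.81 for Hspa1b, −2.80 for the pair, −1.54 for Hsph1, −0.85 for Hspa4l, −0.81 for Hspa8 and −0.11 for Hspa4. In 4T1R2 minus 4T1R1 it was −0.93 for Hspa1b, −0.91 for the pair, −0.57 for Hsph1, −0.45 for Hspa8 and −0.43 for Hspa4l. Apart from Hspa4, each difference stayed called under every alternative run, of which that without treated 4T1 replicate 3 has 1 library for treated 4T1. The comparisons with 4T1 share its libraries.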

How the results depend on the processing

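The replicate numbers did not pair the samples: the deviations of same-numbered treated and untreated libraries correlated at −0.026 to 0.040, and 2 of 9 untreated libraries correlated best with their own number. With a replicate block over all 18 libraries no call among the members changed, and the uncalled response of Hspa2 in 4T1 turned to 0.077 (0.075 with 18 libraries and no block).

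Scaling by library totals alone moved the most results. It gave 1 member lower in the response of 4T1, with Hspa13 there at −0.10, and Hspa2 at 0.0071 in that of 4T1R1. It gave 2 members higher in the difference of 4T1R1 from 4T1, with Hspa2 at 0.14 and Hspa4 at 0.073; DESeq2 put Hspa2 there at 0.0082. In treated 4T1R1 against treated 4T1 it gave 1 member higher and 5 lower, with Hspa14 at 0.027. In treated 4T1R2 against treated 4T1 it gave 1 member higher, with Hspa4l at 0.042. In treated 4T1R2 against treated 4T1R1 it gave 1 member higher, with Hspa4 at −0.013 and Hspa13 at −0.019. Over all genes it gave 61 higher and 609 lower in the difference between the resistant populations (164 and 124 with TMM), 4587 and 2767 in treated 4T1R2 against treated 4T1 (3489 and 3776) and 1799 and 4333 between the treated resistant populations (3068 and 2879). Those scaling factors are all that changes in it. Without the filter 283 genes were higher in the difference between the resistant populations, in place of 164. Without treated 4T1 replicate 3 that group is the averaged library alone, assumed to vary like the other groups, and 13846 genes pass the filter; the genes with a smaller response fell to 787 (from 1227) in 4T1R1 and 668 (from 1102) in 4T1R2, and those with a larger one to 798 (from 1237) in 4T1R1. Leaving out untreated 4T1R2 replicate 2 or treated 4T1R2 replicate 1 brought the genes lower in the response of 4T1R2 from 588 to 376 and 367, and leaving out treated 4T1R1 replicate 1, treated 4T1R2 replicate 3 or untreated 4T1R2 replicate 2 brought those higher in the difference between the resistant populations from 164 to 104, 87 and 98, with 73 and 68 lower in place of 124 in the former 2.

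With each library left out in turn, the members higher in untreated 4T1R1 ranged from 1 to 2. Values that changed sign, none of them called in the full fit, ranged as follows. Those of Hspa2 ranged from −0.40 to 0.26 in the response of 4T1, from −0.11 to 0.11 in that of 4T1R1, from −0.097 to 0.12 between untreated resistant populations, and from −0.29 to 0.37 and −0.59 to 0.097 in the differences of 4T1R1 and 4T1R2 from 4T1. Those of Hspa13 ranged from −0.023 to 0.037 in the response of 4T1 and from −0.12 to 0.017 in the difference between resistant populations. Those of Hspa14 ranged from −0.033 to 0.030 in the response of 4T1R1 and from −0.0030 to 0.040 in untreated 4T1R2. Those of Hspa1a ranged from −0.83 to 0.41 in untreated 4T1R2 and from −0.62 to 0.15 between treated resistant populations, and that of Hspa4l from −0.058 to 0.0075 in treated 4T1R2 against treated 4T1. The difference in response of Hspa1a between 4T1R1 and 4T1 was called without untreated 4T1 replicate 3 (−2.61, adjusted P-value 0.0225).

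Dividing by the longest transcript in place of the exon union changed the shares of the sum in untreated 4T1 to 66.3% for Hspa8, 14.5% for Hspa4, 7.66% for Hsph1, 6.93% for Hspa14, 2.49% for Hspa13, 1.53% for Hspa4l and 0.590% for Hspa1b. A search for 3 heat shock element units found 0 members, and one for the pair with TTC first, added after seeing the data, found 1. Of the values of single genes under the alternatives, 2810 kept direction and side of the threshold, 43 lost and 8 gained the call and 34 changed sign. Where no member was called in a direction, none had an unadjusted P-value under 0.05 there and DESeq2 called none. Depth limits Hspa1a and Hspa2, counted at most 49 and 53 times in a library.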
